A study of Mus musculus with 14 samples.

Results

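The genes described here are 10 genes tied to the identity of mature cerebellar granule neurons: Rbfox3, Etv1, Cbln1, Cbln3, Fat2, Camk4, Nefh, Nefm, Nefl and Tiam1. The mouse genome (GRCm38, which is mm10) holds 21938 annotated protein-coding genes. From these, the 10 were taken as a list of names chosen with earlier results of these data known. H3K27me3, the trimethylated form of lysine 27 on histone H3, was mapped over them by ChIP-seq (immunoprecipitation of chromatin followed by sequencing) in the mouse cerebellum. The libraries used were an age series of C57BL/6NCrl mice at postnatal day 7 (P7), 14 (P14) and 60 (P60), with 3 libraries at each stage. Each library pooled 3 mice at P7 and 2 mice at P14 and came from 1 mouse at P60, with both sexes used, so pool size changed with stage. The series also holds 2 Kdm6b-WT libraries (Kdm6b fl/fl) and 3 Kdm6b-cKO libraries (Atoh1-Cre; Kdm6b fl/fl), whose peak positions did not lie on the same assembly and were not compared with gene positions. No RNA was measured in these files, so the name of the group could not be checked against expression.

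H3K27me3 is written by Polycomb repressive complex 2 and is found over the promoters of genes that are held silent. Granule neurons are born from dividing progenitors in the outer layer of the young cerebellum, leave the cell cycle, migrate inwards and then switch on the genes of their mature synapses and axons. The members cover several of those functions. Rbfox3 encodes the splicing factor NeuN, a stain for postmitotic neurons, and Etv1 is an Ets transcription factor whose activity in granule neurons follows neuronal activity. Cbln1 and Cbln3 are secreted cerebellins of the granule cell axons, where Cbln1 helps to hold their synapses on Purkinje cells together. Fat2 is a giant cadherin of granule cell axons, Camk4 a calcium/calmodulin-dependent kinase that acts on CREB, and Tiam1 an exchange factor that activates Rac. Nefh, Nefm and Nefl are the heavy, medium and light neurofilament subunits, which other cerebellar neurons such as Purkinje cells also make.

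The data are lists of regions enriched for the mark (peaks), 1 list per library. For each transcription start site (TSS) the window reached 3 kb to each side, and promoter coverage gives, for the window with most coverage in that list, the share of its bases under peaks in percent. A promoter is called covered where at least 1 bp lay under a peak. The members, chosen with earlier results known, were of 2 kinds, and their shares beside all genes are a description. Rbfox3, Cbln1, Nefh, Nefl and Tiam1 were covered in every P7 library, which is 5 of 10 members beside 14.3% of all 21938 protein-coding genes. Etv1, Cbln3, Camk4 and Nefm were covered in none of the 9 libraries, which is 4 of 10 members beside 69.4% of all genes. Fat2 stood between, with coverage in 1 P7 library. Where at least 10 percent of the window had to be covered, Cbln1 left the first kind and 4 members remained in it. Cbln1 also left it when a peak needed a −log10 q of at least 2, and with the same number of peaks taken from each list. In both settings it was no longer tested. A −log10 q of 2 is the false discovery rate of 0.01 named in the methods of the study. The lowest −log10 q of each list lay between 1.001 and 1.012, so the main results also count peaks above that rate.

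The 4 sequences below show a Tiam1 promoter whose window had a peak in every P7 list and in no P60 list. Next to it is DNA of members that no list covered there. The capitals mark CpG dinucleotides, the sites of DNA methylation whose clusters (CpG islands) attract Polycomb complexes. The first is the promoter of the Tiam1 start site that lost its peak (chr16:89818303-89818602, minus strand), with 9 CpG. The second is another Tiam1 promoter whose window no list covered (chr16:89974650-89974949, minus strand), with 7. The third is an Etv1 promoter (chr12:38779832-38780131, plus strand), with 12, and the fourth is that of Cbln3 (chr14:55884207-55884506, minus strand), with 2. The promoters are RefSeq entries on GRCm38.p6, each with 250 bases before and 50 after the start.
Tiam1, start site marked at P7: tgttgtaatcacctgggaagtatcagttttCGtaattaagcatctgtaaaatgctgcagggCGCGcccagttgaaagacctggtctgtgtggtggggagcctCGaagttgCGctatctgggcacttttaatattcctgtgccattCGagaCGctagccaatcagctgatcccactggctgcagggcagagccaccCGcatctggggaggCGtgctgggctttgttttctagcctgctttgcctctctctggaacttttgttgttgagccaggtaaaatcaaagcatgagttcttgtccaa
Tiam1, start site never covered: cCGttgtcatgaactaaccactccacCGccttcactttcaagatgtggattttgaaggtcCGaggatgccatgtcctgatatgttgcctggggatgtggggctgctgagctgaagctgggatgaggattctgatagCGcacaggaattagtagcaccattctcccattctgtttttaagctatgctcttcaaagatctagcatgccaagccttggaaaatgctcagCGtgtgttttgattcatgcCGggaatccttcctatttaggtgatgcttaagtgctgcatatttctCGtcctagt
Etv1, never covered: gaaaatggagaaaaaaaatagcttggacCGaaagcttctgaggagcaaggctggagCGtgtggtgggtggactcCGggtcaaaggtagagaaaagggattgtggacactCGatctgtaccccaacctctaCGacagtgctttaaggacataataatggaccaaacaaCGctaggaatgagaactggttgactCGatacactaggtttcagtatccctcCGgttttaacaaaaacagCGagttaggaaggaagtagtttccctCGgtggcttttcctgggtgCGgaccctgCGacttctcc
Cbln3, never covered: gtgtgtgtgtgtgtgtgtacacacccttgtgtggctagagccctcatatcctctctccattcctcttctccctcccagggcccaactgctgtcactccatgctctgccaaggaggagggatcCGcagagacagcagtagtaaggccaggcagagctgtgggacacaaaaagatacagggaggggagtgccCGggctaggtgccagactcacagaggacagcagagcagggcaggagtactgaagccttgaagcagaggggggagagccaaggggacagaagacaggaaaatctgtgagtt

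Among all 32851 RefSeq promoters of this length the median was 7 CpG. Entries matched 5 of the members: Fat2, Rbfox3, Etv1, Cbln3 and Tiam1. Nefl, Nefh, Cbln1, Nefm and Camk4 had none. The letters CAGCAGG, the core of the motif of ZIC factors (zinc finger proteins abundant in granule neurons), were searched on both strands, with no other motif searched. They occurred in 1 of the 7 promoter entries of these 5 members, that of Fat2, and in 10.5% of all promoters of this length. This match is a description of letters only.

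The 9 lists held between 6905 and 15600 peaks and covered between 1.48 and 15.2 Mb. Peaks of P60 replicate 1 and P60 replicate 2 were narrow, with median widths of 134 and 149 bp against 269 to 751 bp in the other 7 libraries. Mean promoter coverage over all protein-coding genes lay between 3.13 and 5.70% at P7, between 1.26 and 3.31% at P14, and between 0.345 and 1.34% at P60. The number of reads behind a list is unknown, so an uncovered window means that no peak was called there at an unknown depth. In bulk tissue, fewer cells that carry the mark and less mark per cell cannot be told apart.

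Over the 3 stages, promoter coverage of all 5 tested members fell, and none rose. From P7 to P60 the decline passed the test in 5 of 5 members, beside 45.8% of the 5120 genes tested (limma, adjusted p under 0.05, genes covered in 2 or more of the 9 libraries). The other 5 members did not pass that filter. Cbln1 passed it through P7 libraries alone, so a fall was the only outcome open to it, as for 672 of the genes tested, of which 47.3% passed the test. Of the members also covered at a later stage 4 of 4 passed, beside 45.6% of 4448 such genes. The median difference was -34.4 percentage points over the 5 members and -11.99 over all genes tested. All 5 members were covered in every P7 library, while the genes tested include some with no P7 coverage, such as Mycn. A high start leaves more room to fall, so these shares and medians do not compare like with like. Falls were not counted over the 3128 genes covered in every P7 library. From P7 to P14 the test passed in 1 of 5, Rbfox3, beside 11.7% of genes, and from P14 to P60 in 0 of 5, beside 2.07%. At an unadjusted p under 0.05, 5 of 5 members and 1423 of 5120 genes fell from P7 to P14, and 1 of 5 (Nefl) and 1266 of 5120 genes from P14 to P60. limma without trend and robust variance gave 2 of 5 members with 674 genes, and 0 of 5 with 350 genes.

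The P60 end of these comparisons rests on libraries with narrow peaks. Without P60 replicates 1 and 2, which leaves 1 P60 library that is assumed to vary like the other stages, none of the 5 members passed from P7 to P60, and neither did any of 4875 genes tested by limma, although 3 members and 1232 genes had an unadjusted p under 0.05. The differences themselves stayed between -15.6 and -39.6 points. Without P60 replicate 2 alone, 3 of 5 passed. When each library was divided by its mean promoter coverage, 3 of 5 passed (Rbfox3, Nefl and Cbln1), Nefh fell short (adjusted p = 0.609) and the direction for Tiam1 turned (adjusted p = 0.472), while over all genes 1093 fell and 275 rose in place of 2347 and 31. The part of peak width and of library-wide coverage in the members' declines was not tested.

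**Figure D1:**
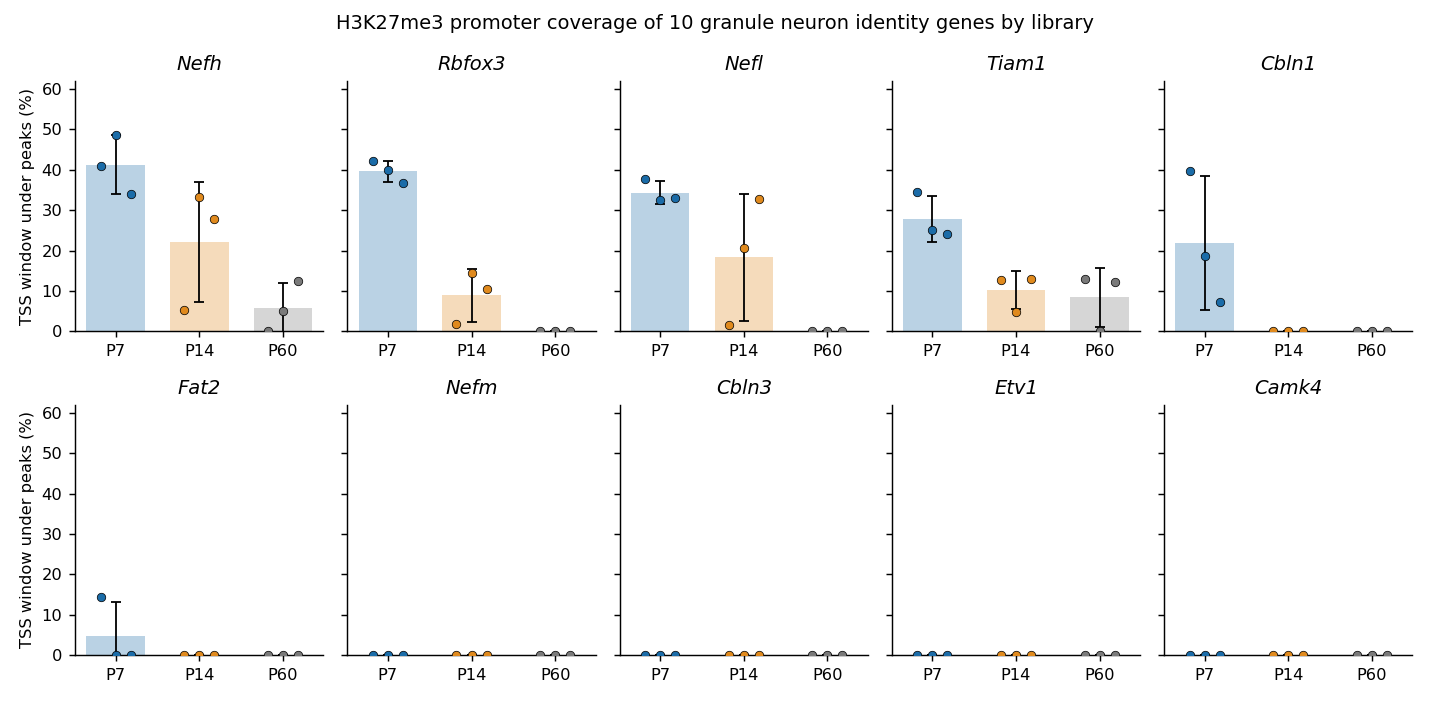
Percent of the most covered TSS window under H3K27me3 peaks (vertical axis) at P7, P14 and P60 for each of the 10 genes. Points are single libraries, bars are means of 3 libraries and error bars are SD. Nefh, Rbfox3, Nefl, Tiam1 and Cbln1 had coverage in every P7 library, while Nefm, Cbln3, Etv1 and Camk4 stayed at 0 in all 9.

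The mature neuron marker Rbfox3 (chr11:118489762-118911597, minus strand) had the smallest spread at P7 of the 5 members covered there. Promoter coverage was 42.1, 39.98 and 36.8% in the 3 P7 libraries, 1.72, 14.5 and 10.4% at P14, and 0 in each P60 library. No value of one stage overlapped those of another. The mean went from 39.6 ± 2.65% at P7 (SD, n = 3) to 8.88 ± 6.53% at P14, a difference of -30.7 points (SE 4.66, limma adjusted p = 0.00306). From P7 to P60 the difference was -39.6 points (SE 4.66, limma adjusted p = 0.000610).

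Rbfox3 has 9 annotated start sites spread over 404.2 kb of its 421.8 kb span, and they did not follow 1 course. At the inner start site (118569910, a protein-coding transcript), coverage was 42.1, 39.98 and 36.8% at P7, then 1.72, 0 and 0% at P14 and 0 at P60. Almost all of that peak was therefore gone by P14. At the outer cluster of 4 start sites (118908005, a noncoding transcript, to 118909572), coverage was 18.8, 6.67 and 0% at P7, then 0, 14.5 and 10.4% at P14 and 0 at P60. The outer cluster thus had peaks in 2 libraries at each of P7 and P14, and the first site of all, 118911597, was covered in P14 replicate 2 alone (9.57%). A fit over 13713 single TSS windows was chosen after seeing the data. In it 45.9% of windows fell from P7 to P60, and 13.4% by P14. The inner window fell from P7 to P14 by 39.0 points (limma adjusted p = 0.000771) and the outer windows differed by -0.20 points (limma adjusted p = 0.999). From P7 to P60 the inner window fell by 39.6 points (limma adjusted p = 0.000424), against -8.50 points in the outer windows (limma adjusted p = 0.188). The difference between the windows was not itself tested.

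The inner Rbfox3 peak was wide and centred on its start site. In the P7 lists it ran over 2525, 2399 and 2209 bp at 3.03-fold, 3.18-fold and 3.07-fold enrichment over the background of its own library, and 2209 bp were common to all 3. This common stretch held 78.8 CpG per kb, against 8.26 per kb in the genome. With windows of 1 kb to each side, the inner site was covered over its full length in every P7 library, and the fitted fall to P60 was 100 points. The single P14 remnant measured 103 bp. Of the 8 merged peak regions in and around Rbfox3, 5 were seen in 1 library only.

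**Figure D2:**
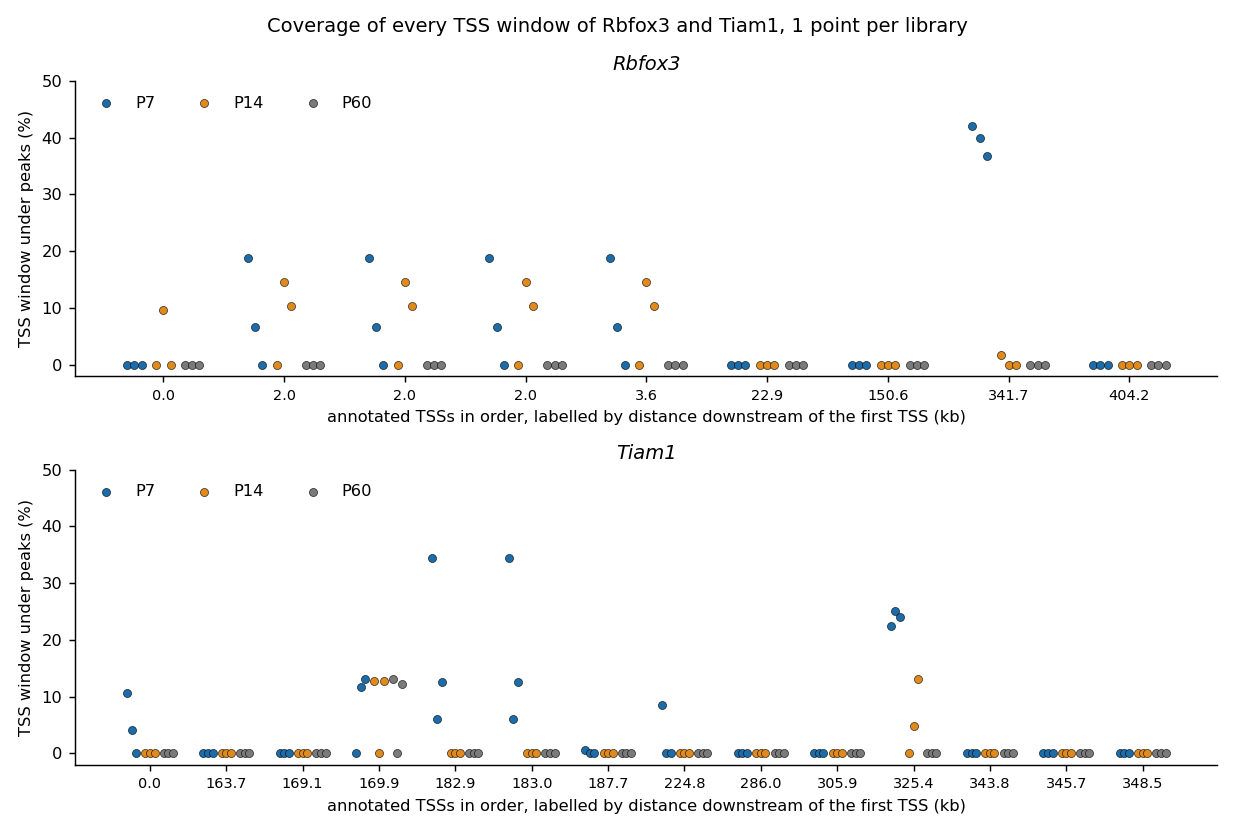
Percent of each annotated TSS window under peaks (vertical axis) for Rbfox3 and Tiam1, with start sites in order and labelled by their distance from the first site in kb. Each point is 1 library, coloured by stage. The tall P7 points of Rbfox3 stand 341.7 kb downstream of the first site, and those of Tiam1 at 182.9, 183.0 and 325.4 kb.

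Etv1 (chr12:38779380-38870484, plus strand), the other regulator of gene expression among the members, had no peak in its 13 TSS windows or anywhere in its gene body in any of the 9 lists. Its Ets relatives of the PEA3 group were covered. The relatives of members and the other list genes named from here on are paralogs or were picked for high P7 coverage, which favours a fall, so their changes are a description, and each list's count of falls stands beside the 45.8% of all genes tested. Of those named, Etv5, Ina, Camkk1, Camkk2, Camk2b and Rora passed the filter through P7 libraries alone, as Cbln1 did. Each list's counts of genes covered in every P7 library and in none of the 9 stand beside 14.3% and 69.4% of all genes. Etv4 averaged 27.2 ± 18.3% at P7 (SD, n = 3), 7.76 ± 5.78% at P14 and 1.51 ± 2.61% at P60, and it fell from P7 to P60 (-25.6 points, limma adjusted p = 0.0183). Etv5 averaged 17.5 ± 27.7% at P7 and 0 later (limma adjusted p = 0.164), so its P7 spread exceeded its mean. Of the splicing factor paralogs of Rbfox3, Rbfox1 fell from 13.98 ± 1.23% at P7 to 0 at P60 (limma adjusted p = 0.0335), while Rbfox2 was covered in none of the 9 libraries.

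The cerebellins split the same way. Cbln1 (chr8:87468405-87472609, minus strand) had promoter coverage of 39.8, 18.6 and 7.23% at P7 and 0 in all 6 later libraries. Every P7 library was above every later one, yet the P7 libraries themselves were spread widely. The mean of 21.9 ± 16.5% (SD, n = 3) went to 0 at P60 (SE 6.56, limma adjusted p = 0.0184), the only direction that its filter allowed. The same difference from P7 to P14 missed the threshold (limma adjusted p = 0.0521). Without any 1 of the 3 P60 libraries, the P7 to P60 call for Cbln1 was lost (limma adjusted p = 0.0518 to 0.0526).

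The Cbln1 peak lay inside the gene, not over its main start. The region present in all 3 P7 lists (chr8:87469956-87471331, 1376 bp) overlapped coding exon sequence and held peaks that lay between 1278 and 2653 bp downstream of the 5′-most start site, with 61.8 CpG per kb. A second region toward the gene's 3′ end (chr8:87467998-87469331) was seen in 2 of 3 P7 lists. Both peaks were weak within their lists: the common region had 2.19-fold, 2.59-fold and 2.59-fold enrichment and sat among the top 55.0, 65.7 and 76.3% of peaks by −log10 q. Coverage of the whole 4.2 kb gene span was 48.7, 26.6 and 10.3% at P7 and 0 later.

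Cbln3 (chr14:55878913-55884392, minus strand), a cerebellin of granule cells that assembles with Cbln1, had no peak in its TSS windows or gene body in any list. Other cerebellin synapse genes carried more of the mark. Of 13 listed partners, 9 were covered in every P7 library and 4 in none of the 9, and 8 of 9 tested fell from P7 to P60. Nptx1, a neuronal pentraxin, fell from 56.7 ± 1.82% at P7 to 8.09 ± 8.24% at P14 (limma adjusted p = 0.00108) and 0 at P60. The paralogs Cbln2 and Cbln4 averaged 38.5 ± 5.66% and 41.2 ± 4.28% at P7. They still averaged 31.1 ± 11.98% and 35.8 ± 11.95% at P14, where neither difference passed the test (limma adjusted p = 0.466 and 0.596), and 6.04 ± 2.92% and 0 at P60. Grid1, a delta receptor, went from 33.4 ± 8.01% at P7 to 2.69 ± 3.54% at P60 (limma adjusted p = 0.0153).

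The neurofilament genes included the highest P7 coverage of the members and 1 gene with none. Nefh (chr11:4938754-4948064, minus strand) was covered at 40.9, 48.7 and 34.1% at P7, 5.32, 33.4 and 27.8% at P14, and 0, 5.02 and 12.4% at P60. The lowest P7 library stood just above the highest P14 library, and P14 and P60 overlapped. The fall from P7 to P60 was 35.5 points (SE 7.58, limma adjusted p = 0.00378), while the steps from P7 to P14 (-19.1 points, limma adjusted p = 0.128) and P14 to P60 (-16.4 points, limma adjusted p = 0.203) did not pass. Its peak straddled the single start site and shrank around it. The P7 peaks were 2080, 2591 and 2048 bp wide, a second short region lay in the gene in P7 replicates 1 and 2 (377 and 330 bp), and P60 replicate 2 and 3 kept 301 and 742 bp over the same site.

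Nefl (chr14:68083863-68089095, plus strand) was covered at 37.7, 32.4 and 33.0% at P7, 1.65, 20.6 and 32.8% at P14, and 0 at P60. P14 replicate 3 reached the P7 range while P14 replicate 1 was almost clear. The P7 mean of 34.4 ± 2.89% (SD, n = 3) fell to 0 at P60 (SE 6.82, limma adjusted p = 0.00266), and the P7 to P14 step did not pass (-16.0 points, limma adjusted p = 0.144). The whole peak lay upstream: the merged region (chr14:68081226-68083703) ended before the start site, and no peak touched the Nefl gene body in any list. At 18.2 CpG per kb this region was poorer in CpG than the inner Rbfox3 region.

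Leaving out P14 replicate 1 changed the P14 to P60 call in both genes. Without that library, Nefl (-26.7 points, limma adjusted p = 0.00705), Nefh (-24.8 points, limma adjusted p = 0.0203) and Rbfox3 (-12.5 points, limma adjusted p = 0.0448) passed from P14 to P60, which is 3 of 5 in place of 0, and 1107 of 5054 genes fell in place of 106 of 5120. P14 replicate 1 covered 3.62 Mb under peaks, against 7.79 and 9.26 Mb in the other P14 libraries. Its part in the result was not tested beyond leaving it out.

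Nefm (chr14:68082590-68124846, minus strand) neighbours Nefl, and its start site had no peak within 3 kb in any list. Its annotated span counted as covered at 2.13, 2.04 and 2.19% at P7, but those bases are the region upstream of Nefl, which 1 long Nefm transcript of GENCODE runs across. Over the shorter RefSeq span of Nefm (chr14:68119545-68125004), 0 bp were covered in each of the 9 libraries.

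Other intermediate filament genes behaved unevenly. Of 8 in the list, 4 were covered in every P7 library and 3 of 6 tested fell from P7 to P60. Nes, the filament of neural progenitors, fell from 41.3 ± 8.26% at P7 to 6.22 ± 10.8% at P60 (limma adjusted p = 0.00221), and Des, the muscle filament desmin, from 30.1 ± 4.59% to 0 (limma adjusted p = 0.000946). Synm fell from 23.5 ± 0.809% to 5.33 ± 4.46% (limma adjusted p = 0.00836). Prph, the peripheral neuron filament, was at 36.8 ± 7.69% and 16.5 ± 15.6% (limma adjusted p = 0.0575). Ina, another neuronal subunit, was at 11.2 ± 14.3% at P7 and 0 later (limma adjusted p = 0.113). Vim was at 0 in the P7 libraries and averaged 4.02 ± 3.49% in the P60 ones (limma adjusted p = 0.486), and Gfap was never covered.

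**Figure D3:**
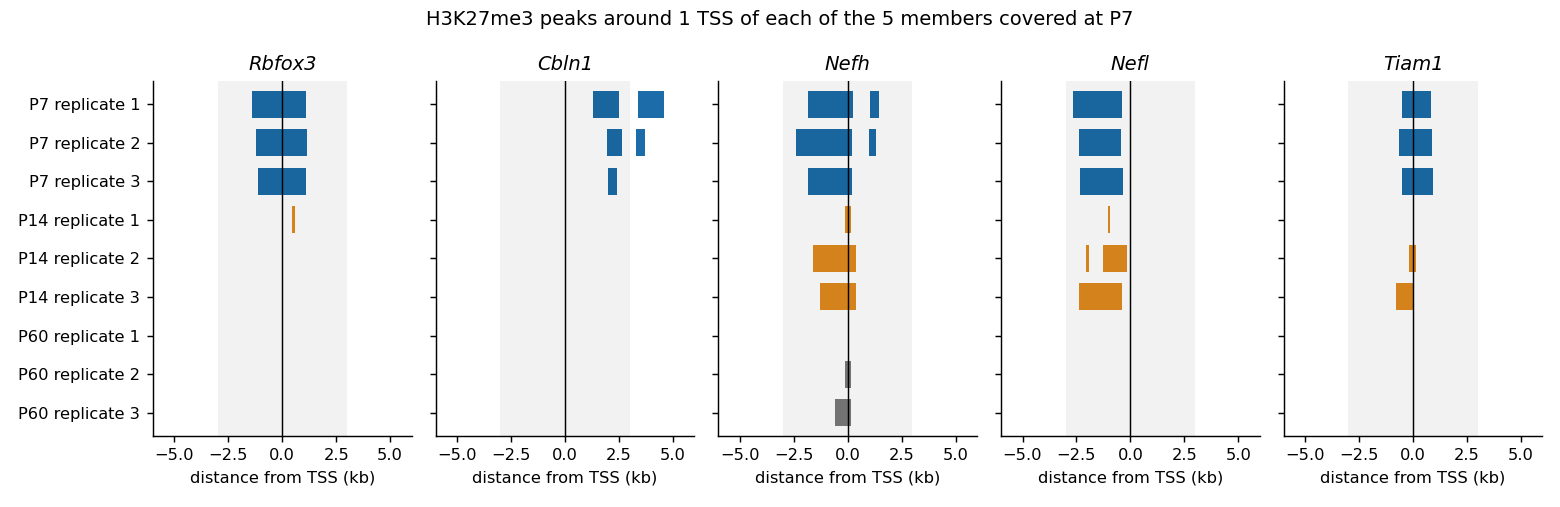
Peaks in each of the 9 libraries (rows) around 1 start site of each of 5 members, with distance from that site in kb on the horizontal axis (positive values lie downstream) and the 3 kb window shaded. The site is the inner one for Rbfox3, the 5′-most one for Cbln1, the only one for Nefh and Nefl, and 89818352 for Tiam1. At P14 peaks were mostly narrower or absent, but Nefl in P14 replicate 3 had 1971 bp, within its P7 range of 1947 to 2262 bp. Nefh in P14 replicate 2 had 2003 bp, close to the 2048 bp of P7 replicate 3. At P60 Nefh alone kept peaks near the site drawn.

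Tiam1 (chr16:89787111-90143769, minus strand) has 14 annotated start sites, and the value for the gene mixed several of them. Gene-level coverage was 34.4, 25.1 and 23.996% at P7, 12.8, 4.83 and 13.0% at P14, and 13.0, 0 and 12.2% at P60. P7 stood above both later stages, which overlapped. The fall from P7 to P60 was 19.4 points (SE 5.31, limma adjusted p = 0.0120), a direction that turned when libraries were divided by their means, and the P7 to P14 difference was -17.6 points (limma adjusted p = 0.0527). Without P60 replicate 2 the adjusted p from P7 to P60 was 0.0689 by limma.

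Taken site by site, Tiam1 had peaks at P7 that no P60 list held and a peak that P60 lists still held. At the start site 89818352, whose promoter is printed above, coverage was 22.4, 25.1 and 23.996% at P7, 0, 4.83 and 13.0% at P14, and 0 at P60. It fell from P7 to P14 by 17.9 points (limma adjusted p = 0.0206) and from P7 to P60 by 23.9 points (limma adjusted p = 0.00177). At the paired sites 89960737 and 89960827, which share their peaks, coverage was 34.4, 6.02 and 12.5% at P7 and 0 later. These 2 windows met the filter through P7 libraries alone, so a fall was the only outcome open to them. Their fall to P60 was 17.7 points (limma adjusted p = 0.0331). At P60 neither position had a peak in any library.

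The noncoding start 89973899 kept its peak, an intronic one near the edge of the window. Its coverage was 0, 11.6 and 13.0% at P7, 12.8, 0 and 12.8% at P14, and 13.0, 0 and 12.2% at P60. The difference from P7 to P60 was 0.21 points (SE 5.51, limma adjusted p = 0.994), and 2 of 3 libraries at every stage had the peak. This site alone supplied the gene's P60 value. The 5′-most site, 90143769, also met the filter through P7 libraries alone. It had 10.7, 4.07 and 0% at P7 and 0 later (limma adjusted p = 0.0963 to P60). Of the 14 windows, 7 were covered in no list, among them that of the second printed sequence.

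Of 15 other Rac exchange factors and Rac genes, 5 were covered in every P7 library, 4 in none of the 9, and 5 of 9 tested fell from P7 to P60. The paralog Tiam2 fell from 24.2 ± 5.30% at P7 to 3.27 ± 4.45% at P60 (limma adjusted p = 0.00682). Kalrn, a Rac exchange factor of dendritic spines, fell from 30.9 ± 13.8% to 4.86 ± 4.75% (limma adjusted p = 0.0103). Dock1 was at 25.6 ± 8.03% at P7 and 28.0 ± 4.88% at P14 and fell by P60 to 0.317 ± 0.548% (limma adjusted p = 0.0381 from P14 to P60). Vav3 fell from 25.3 ± 8.58% at P7 to 4.19 ± 6.43% at P60 (limma adjusted p = 0.0136).

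Fat2 (chr11:55250609-55336564, minus strand) had little. Its start site at 55312257 was covered at 14.4% in P7 replicate 1 and at 0 in the other 8 libraries, so the gene did not enter the test, and the 5′-most site was never covered. Inside the gene an intronic region (chr11:55257772-55258578) had peaks of 282 and 547 bp in P7 replicates 1 and 2. Gene-body coverage was 1.33, 0.636 and 0% at P7 and 0 later, and the fall did not pass (limma adjusted p = 0.116). Among related cadherins, Dchs2 fell from 30.9 ± 4.63% at P7 to 2.76 ± 4.78% at P60 (limma adjusted p = 0.00259) and Fat4 from 18.2 ± 10.4% to 0 (limma adjusted p = 0.0209). Fat3 was at 8.76 ± 7.61% and 4.54 ± 7.04% (limma adjusted p = 0.457), and Fat1 was never covered.

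Camk4 (chr18:32934931-33191228, plus strand) had no peak in its 4 TSS windows, and 1 peak in its body in all 9 libraries. Merged over the 9 lists, that peak region (chr18:33112726-33113032) is intronic and 307 bp long. It holds 0 CpG, and 85.3% of it is masked as repeat sequence. Peak widths were 258, 204 and 271 bp at P7, 148, 221 and 250 bp at P14, and 125, 125 and 214 bp at P60, so the stages overlapped. Gene-body coverage of Camk4 averaged 0.0953 ± 0.0139% in the P7 libraries and 0.0603 ± 0.0200% in the P60 ones (limma adjusted p = 0.471). Tiam1 carried a like region in all 9 libraries (chr16:89939629-89940085), intronic, 457 bp long, with 0 CpG and 74.4% masked, at 5.06-fold to 7.503-fold enrichment.

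Of 39220 regions merged over the 9 lists, 1455 were in all 9. Their median was 1439 bp, 18.7% masked and 24.3 CpG per kb, beside 346 bp, 17.8% and 13.6 per kb over all regions. The 277 of them under 500 bp, the size of the Camk4 and Tiam1 regions, had a median of 57.1% masked sequence and 9.501 CpG per kb. The 2370 regions in every P7 list and no P60 list had medians of 1659 bp, 9.40% and 35.5 per kb. The lost and the short constant regions thus also differed in width. The inner Rbfox3 region was among the lost ones, with 6.93% masked and 70.4 CpG per kb, and so was the Tiam1 region at 89818352, with 12.2% and 31.8 per kb. Whether the constant peaks in Camk4 and Tiam1 reflect the histone mark or the mapping of repeats was not tested.

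Of kinases around Camk4, 5 of 13 listed genes were covered in every P7 library, 6 in none of the 9, and 4 of 7 tested fell from P7 to P60. Camkk1, an upstream kinase of Camk4, fell from 15.1 ± 5.20% at P7 to 0 at P14 (limma adjusted p = 0.0192) and stayed at 0. Camkk2, the other upstream kinase, fell from 10.5 ± 5.45% at P7 to 0 at P14 (limma adjusted p = 0.0492). Camk2b fell from 26.2 ± 22.7% to 0 at P60 (limma adjusted p = 0.0268) and Camk1d from 12.7 ± 6.98% to 0 (limma adjusted p = 0.0184). Camkv was at 15.8 ± 4.82% and 3.76 ± 6.51% (limma adjusted p = 0.0666). Creb1, the factor Camk4 acts on, was never covered.

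Gene-body coverage, taken over the whole annotated span, passed the test in fewer members than promoter coverage. From P7 to P60 it fell in 4 of 7 members tested (Tiam1, Rbfox3, Cbln1 and Nefm, the last through the Nefl region), beside 26.3% of 6104 genes. The differences ranged from -28.6 points in Cbln1 (limma adjusted p = 0.0402) to -0.82 points in Rbfox3 (limma adjusted p = 0.0154), in spans of 4.2 and 421.8 kb. Nefh (limma adjusted p = 0.0853), Fat2 and Camk4 did not pass. Cbln1 and Fat2 were tested through P7 libraries alone. Outside the TSS windows 0 of 5 tested members passed by limma, with 3 at an unadjusted p under 0.05, beside 135 and 546 of 2834 genes. Without P60 replicate 1, 0 of 7 passed by limma (4 unadjusted), beside 563 of 5827 genes (1784 unadjusted). Without P60 replicate 2, 0 of 7 passed (5 unadjusted), beside 479 of 5975 genes (1764 unadjusted). The count was 2 without P7 replicate 2, P14 replicate 3 or P60 replicate 3.

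At P7 the covered members ranked Nefh (41.2 ± 7.28%), Rbfox3 (39.6 ± 2.65%), Nefl (34.4 ± 2.89%), Tiam1 (27.9 ± 5.73%) and Cbln1 (21.9 ± 16.5%), each as mean and SD of 3 libraries. Every neighbour in this order overlapped the next in its range of libraries. Among the 3128 genes covered in every P7 library, whose median was 23.7%, these means stood at percentiles from 43.9 for Cbln1 to 90.1 for Nefh. At P60, 3 of these 5 members (Rbfox3, Cbln1 and Nefl) were covered in no library, beside 40.4% of the 3128 genes. At P14 the corresponding count was 1 (Cbln1), beside 10.97%.

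The windows of the covered members were mostly rich in CpG. Cbln1 had 61.2 CpG per kb, Nefh 42.2, Rbfox3 39.99, Nefl 34.0 and Tiam1 19.7 in the window most covered at P7. The median was 25.7 per kb over genes covered in every P7 library and 16.5 over genes covered in none of the 9. Among the members never covered, whose 5′-most window was taken, Nefm had 39.3, Cbln3 26.996, Etv1 24.5 and Camk4 6.999, and Fat2 had 21.5. The Camk4 value belongs to a start of a transcript class marked for decay, and the windows of its 2 protein-coding starts had 23.3 and 23.5. The Etv1 windows ranged from 7.33 to 24.5. The 2 kinds of member overlapped: Nefm exceeded Nefl and Tiam1, and Tiam1 lay below Cbln3, Etv1 and the protein-coding starts of Camk4.

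**Figure D4:**
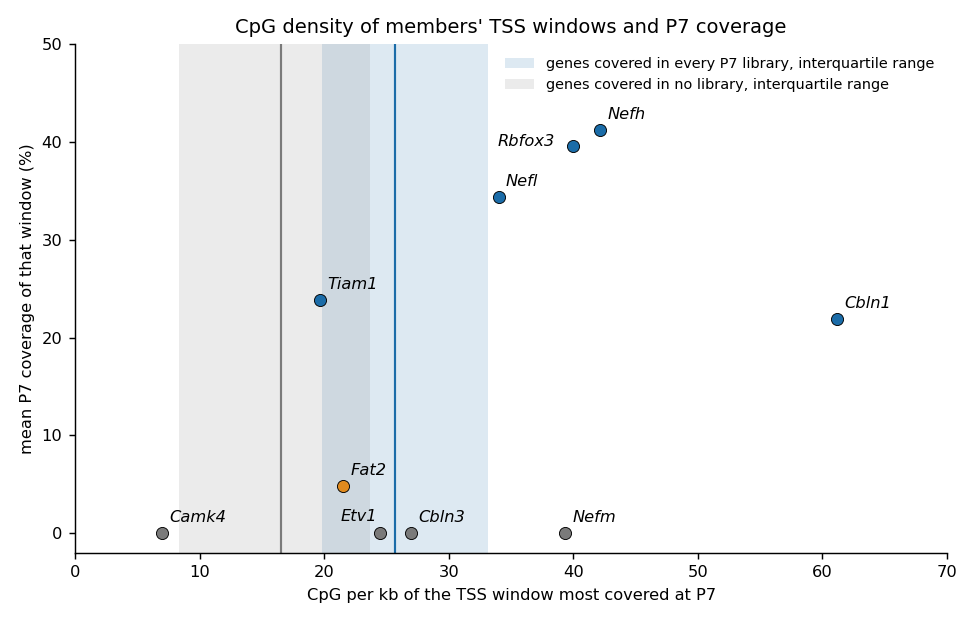
CpG per kb of each member's TSS window (horizontal axis) against its mean P7 coverage in percent (vertical axis), 1 point per gene. Blue marks members covered in every P7 library, orange Fat2 and grey members never covered; shaded bands span the interquartile range of all genes of the 2 kinds and lines mark their medians (25.7 and 16.5 per kb). Members never covered are drawn at their 5′-most window. Nefm, at 39.3 per kb, had no coverage.

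Of 30 other genes of granule neuron maturation and identity, 9 were covered in every P7 library, beside 14.3% of all genes. Another 8 were covered in none of the 9, beside 69.4%, and the rest in some libraries. Of 17 in the list that were tested, 8 fell by P60 and 5 by P14. Their median difference to P60 was -10.3 points against -11.99 over all genes tested. The share that fell by P60 was close to the 45.8% of all genes, and by P14 11.7% of all genes tested fell. Kcnk9, a leak potassium channel of granule cells, fell from 54.0 ± 7.37% at P7 to 18.9 ± 12.1% at P14 (limma adjusted p = 0.00982). Grm4, a presynaptic glutamate receptor, fell from 38.0 ± 9.60% to 3.48 ± 6.02% (limma adjusted p = 0.00388). Wnt7a, an axon-remodelling ligand, fell from 34.7 ± 6.54% to 1.72 ± 2.97% (limma adjusted p = 0.00265). Grin2c, the NMDA receptor subunit of mature granule neurons, fell from 30.8 ± 3.11% at P7 to 0 at P60 (limma adjusted p = 0.00204). The genes never covered were Gabra6, Zic1, Zic2, Mef2a, Mef2c, Nfia, Chd7 and Kcnd2.

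Of 22 progenitor genes 5 of 15 tested fell from P7 to P60, a smaller share than the 45.8% of all genes tested, and the difference was not tested. Those with the highest P7 coverage were 4 of the 5: Ccnd1 went from 55.4 ± 13.2% to 3.56 ± 6.07% (limma adjusted p = 0.00465), Id3 from 49.8 ± 20.1% to 0 (limma adjusted p = 0.00173), Hes5 from 40.5 ± 7.76% to 0 (limma adjusted p = 0.00106) and Sox2 from 40.4 ± 4.53% to 0 (limma adjusted p = 0.00138). In 3 other progenitor genes, named after their values were seen, the P60 mean was above the P7 mean without passing the test. Mycn was at 0, 16.5 ± 11.04% and 13.4 ± 19.5% at the 3 stages (limma adjusted p = 0.209 to P60), Sox11 at 0, 10.8 ± 6.05% and 4.41 ± 7.63% (limma adjusted p = 0.429), and Mki67 at 1.48 ± 2.56%, 6.27 ± 5.57% and 10.6 ± 13.2% (limma adjusted p = 0.217). Atoh1 and Myc, also named after their values were seen, had their highest means at P14 without passing (limma adjusted p = 0.297 and 0.173 from P7). From P7 to P14 the progenitor list had 1 of 15 and the maturation list 5 of 17, beside 11.7% of all genes tested. The difference between the lists was not tested. Rora, a nuclear receptor of Purkinje cells, went from 30.5 ± 6.72% at P7 to 0 at P14 (limma adjusted p = 0.00272), and Npy, a peptide of interneurons, from 48.1 ± 2.23% to 5.89 ± 7.43% at P60 (limma adjusted p = 0.000790). Markers of other cerebellar cells that fell from P7 to P60 numbered 3 of 4 tested for Purkinje cells, 8 of 12 for inhibitory interneurons, 5 of 6 for unipolar brush cells, 1 of 5 for astrocytes and Bergmann glia, 3 of 5 for the oligodendrocyte lineage, 0 of 1 for microglia and 2 of 5 for endothelial and mural cells, each beside the 45.8% of all genes. The 20 ribosomal protein genes were kept as a control for promoters without the mark, but only 9 were covered in none of the 9 libraries. Over all genes that share was 69.4%. Of 6 ribosomal protein genes tested 1 fell, Rpl26, the only one covered in every P7 library (from 25.4 ± 12.5% at P7 to 0 in every P60 library, limma adjusted p = 0.00477).

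Averaged over whole lists, promoter coverage of the 10 members lay between 13.5 and 20.9% in the P7 libraries, 2.15 and 8.42% at P14, and 0.502 and 2.46% at P60. The inhibitory interneuron list lay between 17.4 and 30.9%, 6.79 and 23.7%, and 0.354 and 3.06%, and the oligodendrocyte list between 12.2 and 18.4%, 6.52 and 15.3%, and 0.315 and 4.63%. Within the lists, markers differed. Of 11 Purkinje cell markers 3 were covered in every P7 library and 4 in none of the 9, Pcp2 and Itpr1 among the latter. The same counts were 9 and 0 of 12 for inhibitory interneurons, 6 and 0 of 6 for unipolar brush cells, 2 and 5 of 10 for astrocytes and Bergmann glia, 4 and 4 of 9 for the oligodendrocyte lineage, 1 and 5 of 8 for microglia and 3 and 3 of 8 for endothelial and mural cells. In the oligodendrocyte list, for example, Mbp and Mog were at 0 while Pdgfra averaged 46.5 ± 7.64% at P7. The part of changing cell numbers in the members' values was not tested.

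**Figure D5:**
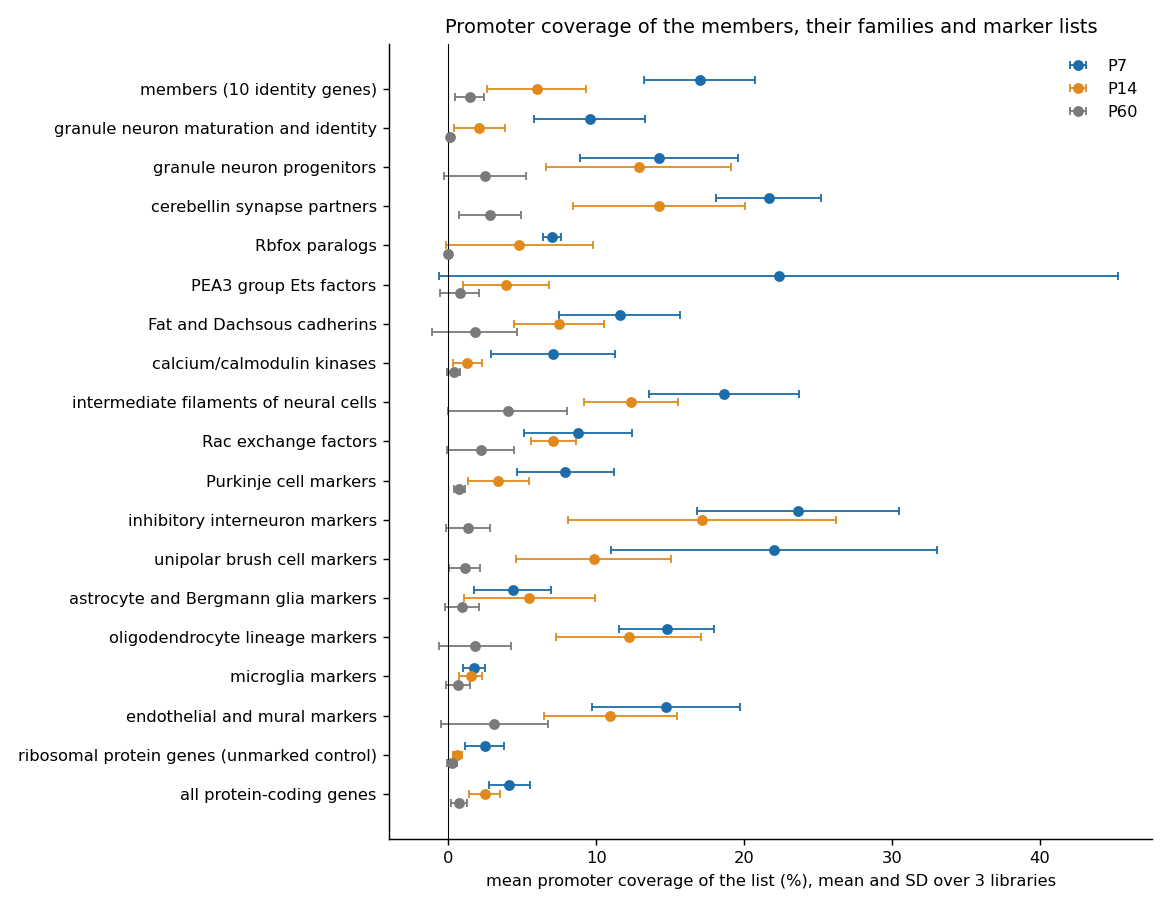
Mean promoter coverage in percent (horizontal axis) of the 10 members, of the families and marker lists, and of all protein-coding genes at P7, P14 and P60. Points are means over 3 libraries of the list's mean and bars are SD. The members averaged 17.0, 5.97 and 1.42%, and all protein-coding genes 4.11, 2.44 and 0.701%.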

How the data were processed

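H3K27me3 ChIP-seq peak lists of 14 libraries were used as deposited. Per the submitters' processing notes the authors used FastQC, Trimmomatic 0.38, STAR 2.7.2b (mm10) and MACS2 2.1 (broad peaks). No input library is named in the sources used here. The deposited values per peak are fold enrichment (a ratio), −log10 p, −log10 q and a score of 10 times −log10 q; they are set within a library and served only to rank peaks. Peaks on GRCm38 were intersected with GENCODE vM21 genes. Percent coverage was fitted with limma 3.58.1 (trend, robust) in R 4.3.3 over all 9 age-series libraries, with Benjamini-Hochberg adjustment. The steps were tested on simulated, normally distributed values raised well above 0. Real coverage stops at 0, so the simulation does not show how the test behaves there. P-values measure the spread between libraries. CpG counts used the GRCm38.p6 genome, with ties in P7 coverage settled by the 5′-most window. Python 3.11.15 and numpy 2.4.6 were used. The members and lists were chosen with earlier results of these data known. All 10 members were named, and of each list up to 4 tested genes with the highest P7 coverage, a rule that favours falls, plus paralogs of the members.

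The 5 Kdm6b lists were not compared with genes. Between 25 and 74 of their peaks per list ended beyond the GRCm38 chromosomes, against 0 in the age series, and on chr11 their peaks were offset by -110 kb from those of P14 replicate 3. Coordinates were not converted. Some items are not reported here.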

Additional observations from a re-analysis of the deposited data

How the results depend on the processing

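The depth behind the lists is unknown, stages have 3 libraries each, and P60 replicates 1 and 2 held narrow peaks. From P7 to P60, 5 of 5 members fell. The count was 0 with peaks of −log10 q of 4 or more (1 member tested), 0 at the same covered length in every list (0 tested), 0 without the narrow-peak libraries, 3 with the 5′-most TSS only (4 tested), 3 after division by the library mean, and 3 to 5 when 1 library was left out (3 without P60 replicate 2). From P7 to P14 the count of 1 became 2 with −log10 q of 2 or more, the same number of peaks, division by the library mean, or limma without trend and robust variance. It became 3 with peaks of 300 bp or more, windows of 1 kb, or genes covered in 3 or more libraries, and 0 with −log10 q of 4 or more or the same covered length. Leaving out 1 library gave 1 to 3 (2 without P7 replicate 1 or P14 replicate 3, 3 without P7 replicate 3). From P14 to P60 it gave 0 to 3 (3 without P14 replicate 1). For gene bodies the count of 4 became 2 with −log10 q of 2 or more, the same number of peaks or division by the library mean, and 0 with −log10 q of 4 or more, the same covered length, the span outside TSS windows, or without the narrow-peak libraries, with 0 to 5 when 1 library was left out. Members covered in every P7 library numbered 0 instead of 5 with −log10 q of 4 or more or the same covered length, and 3 with the 5′-most TSS only, where Rbfox3 and Tiam1 drop out. They numbered 4 with −log10 q of 2 or more, the same number of peaks or 10 percent of the window, where Cbln1 drops out. Members never covered numbered 7 instead of 4 at the same covered length. Fewer peaks, windows or libraries enter by construction; otherwise the cause was not tested.

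Direction turned for Tiam1 after division by the library mean (15.7 from P7 to P60, 19.7 from P14 to P60 and 0.0021 for its body). These values are in rescaled points, since the divided coverage was multiplied back by the average of the library means. From P14 to P60 it also turned with the same number of peaks (4.08 points), without P60 replicate 2 (2.42) and without the narrow-peak libraries (2.02). For Tiam1 this step ranged from -4.49 to 2.42 when any 1 library was left out. Its window at 89973899 differed by 0.21 to P60 and 0.31 to P14, and its body by 0.0421 at the same covered length. After division the bodies of Camk4 (0.136) and Nefh (0.985, both in points rescaled in the same way) turned as well. None of these passed the test. The fit without a filter left out genes at 0 in every library.

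Replicate numbers were not taken to pair the samples. Same-numbered P7 and P14 libraries correlated at -0.216, -0.0211 and -0.108, and P7 and P60 libraries at -0.0631, -0.0126 and -0.0169. Same-numbered P14 and P60 libraries correlated at 0.249, -0.0957 and 0.201, and differently numbered ones at -0.265 to 0.214. With the replicate number as a block, 5 of 5 promoters still fell from P7 to P60, 1 of 5 from P7 to P14 and 0 of 5 from P14 to P60, while gene bodies went from 4 to 0 and genes falling from P7 to P14 from 597 to 233. The comparison of Kdm6b-cKO with Kdm6b-WT was not run, since those positions are on another assembly.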
